A study of Homo sapiens with 12 samples.

Results

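RNA was sequenced from RT4, an established human line of urothelial origin from the bladder, after the cells had received a plasmid for Flag-tagged ITGB4 or the matching empty Flag vector. The comparison took the 3 libraries titled as ITGB4 overexpression (plasmid) and the 3 titled as its control (vector), 6 of the 12 libraries of the series. It covered every gene with enough reads, 16950 of the 61860 listed. All 6 libraries came from cells kept in McCoy's 5A medium with fetal bovine serum, and both groups carry the same treatment label, which names transfection and infection. No dose, time after delivery, selection or clone is given. All 6 titles name ITGB4, but another label names ITGB5 for the second library of each group and ITGB6 for the third. The other 6 libraries, from a cisplatin experiment, were not used here.

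ITGB4 is the beta 4 integrin subunit. It pairs with the alpha 6 subunit, encoded by ITGA6, binds laminin, and anchors keratin filaments to the basement membrane in hemidesmosomes. Its long cytoplasmic tail also recruits signalling proteins. Several groups of genes described below belong to the interferon response, in which sensors of nucleic acid or secreted interferons activate STAT and IRF factors, and these switch on antiviral effectors and chemokines through a promoter element called the ISRE. Others belong to the immediate-early response, in which growth factor signalling through ERK briefly induces FOS, EGR and related factors.

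The libraries held between 22701466 and 33352045 counts each. Across the 10873 genes with a mean of at least 5 counts in a library scaled to 1e+06 counts (CPM), log2 CPM correlated at 0.916 to 0.92 between vector and plasmid libraries, and the first principal component, which separated the groups, held 96.5% of the variance. The common biological coefficient of variation was 2.65%. The labels do not say whether the libraries of a group are separate cultures, so every p-value rests on a spread that could be technical. Of 14 urothelial markers 12 could be tested, with KRT7 at 1510 and 1820 CPM in the vector and plasmid libraries and GATA3 at 156 and 197 CPM, while KRT20 had 0 counts and UPK1A 10 and 2 counts. None of the 7 leukocyte markers passed the low-count filter, and their counts summed over 3 libraries lay between 0 and 15. Of 7 fibroblast markers 2 could be tested: COL3A1 was lower, at 18.2 CPM with the plasmid against 45.9 CPM, and COL1A1 higher, at 6.89 against 4.05 CPM. Of 4 endothelial markers 1 could be tested, VWF, which was lower at 1.38 against 2.06 CPM. All 37 mitochondrial genes were listed at 0 in every library, so no mitochondrial transcript was compared.

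ITGB4 was higher in the cells given its plasmid, and its partner ITGA6 was higher by a smaller step. ITGB4 (chr17:75721328-75757818 of GRCh38, plus strand, GENCODE 29) stood at 858, 879 and 871 CPM in the vector libraries and at 1485, 1379 and 1416 CPM in the plasmid libraries. The groups did not overlap, and the log2 fold change was 0.71 ± 0.027 (standard error, adjusted p = 2.09e-16). These are bulk libraries, in which a change in the number of expressing cells and a change in RNA per cell cannot be told apart. Exon counts cannot separate plasmid transcripts from those of the cells' own gene. ITGA6 went from 455, 461 and 460 CPM to 536, 570 and 551 CPM, a log2 fold change of 0.27 ± 0.026. Per length, ITGB4 was already the 211th highest of 58308 genes in the vector cells, at 600.5 TPM (counts per exon length, scaled to the same sum in each library), and was the 102nd in the plasmid cells, at 948 TPM.

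The difference between the groups reached most of the expressed genome. At an adjusted p under 0.05, 12265 genes were called, 72.4% of those tested: 6194 were higher (36.5%) and 6071 were lower (35.8%). A test for a change over 1.5-fold called 22.6% of genes, with 1890 higher (11.2%) and 1943 lower (11.5%). DESeq2 against the same threshold called 1297 higher and 1178 lower, and the cause of that difference was not tested. Among called genes, 2728 differed over 2-fold, more than ITGB4 itself. Over 4-fold, 311 were higher (1.83% of genes tested) and 327 lower (1.93%). Over 16-fold, 65 were higher and 31 lower. With so many calls, a group of genes is described below by its count in each direction against 36.5% and 35.8%, and by its median against 0.002, the median log2 fold change of all genes tested.

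**Figure D1:**
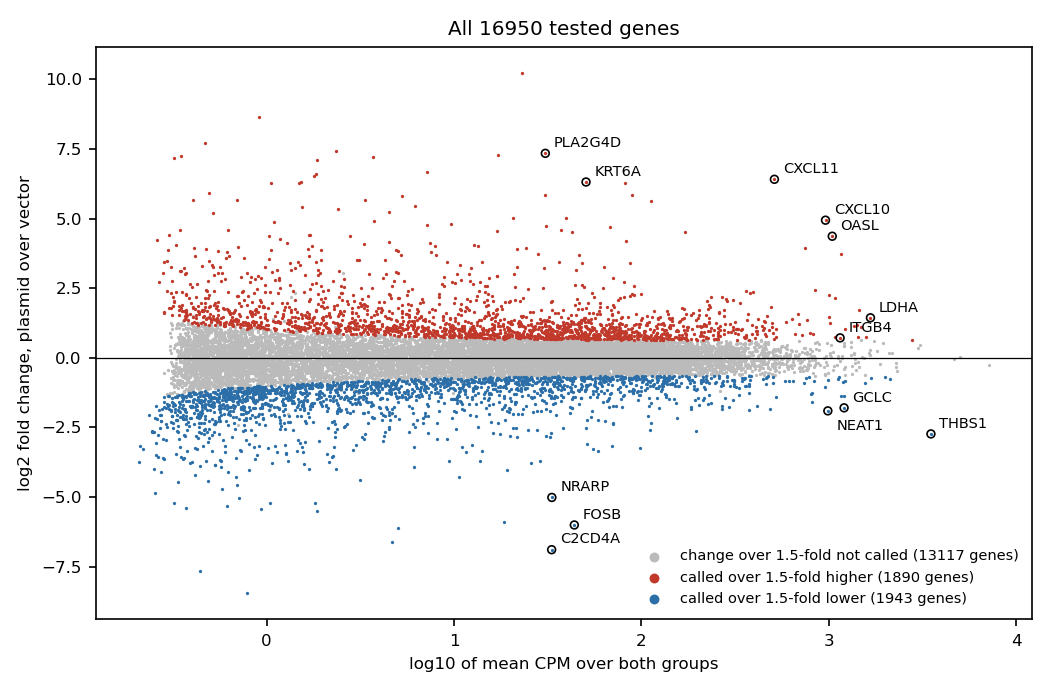
Each point is 1 of the 16950 tested genes, with the log10 of its mean CPM over both groups on the x axis and the log2 fold change of plasmid over vector on the y axis. Red and blue mark the 1890 genes called over 1.5-fold higher and the 1943 called over 1.5-fold lower; ITGB4 lies at 0.71, CXCL10 at 4.94, OASL at 4.37 and THBS1 at -2.74.

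The largest rises among protein-coding genes reaching 10 CPM included those of PLA2G4D, CEACAM5, CXCL11, KRT6A, IGFBP6, CCL22, DHRS9, CXCL10 and PLAT. PLA2G4D, a cytosolic phospholipase A2, stood at 0.342, 0.383 and 0.385 CPM in the vector libraries and at 61.1, 58.9 and 63.0 CPM with the plasmid (log2 fold change 7.34 ± 0.092). KRT6A, a keratin of stressed and squamous epithelium, went from 1.41, 1.36 and 1.04 CPM to 105.5, 94.7 and 99.5 CPM (6.31 ± 0.079). PLA2G4D and KRT6A were thus under 2 CPM in every vector library, while CXCL10, another of these genes, stood near 60 CPM there. IGFBP6, a binding protein of insulin-like growth factor 2, rose 58.0-fold, and PLAT, tissue plasminogen activator, rose 28.1-fold. Reads of CEACAM5 and KRT6A can be shared with close relatives, so their values are uncertain.

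The largest falls were those of C2CD4A, FOSB, NRARP, SHISA9, ABCG1, NGFR, KCNH5, HEY1, CXCL3 and CLGN. C2CD4A, a nuclear protein induced by cytokines, went from 66.3, 65.7 and 65.4 CPM to 0.449, 0.766 and 0.447 CPM (log2 fold change -6.89 ± 0.090). FOSB, a subunit of the AP-1 transcription factor, went from 86.4, 84.7 and 87.8 CPM to 1.30, 1.33 and 1.37 CPM (-6.01 ± 0.068). Both were thus near the floor of detection in all 3 plasmid libraries. ABCG1, a cholesterol exporter, was 16.4-fold lower, and NGFR, a neurotrophin receptor, 15.2-fold lower. KCNH5, a voltage-gated potassium channel, went from 48.1 to 3.50 CPM on average.

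**Figure D2:**
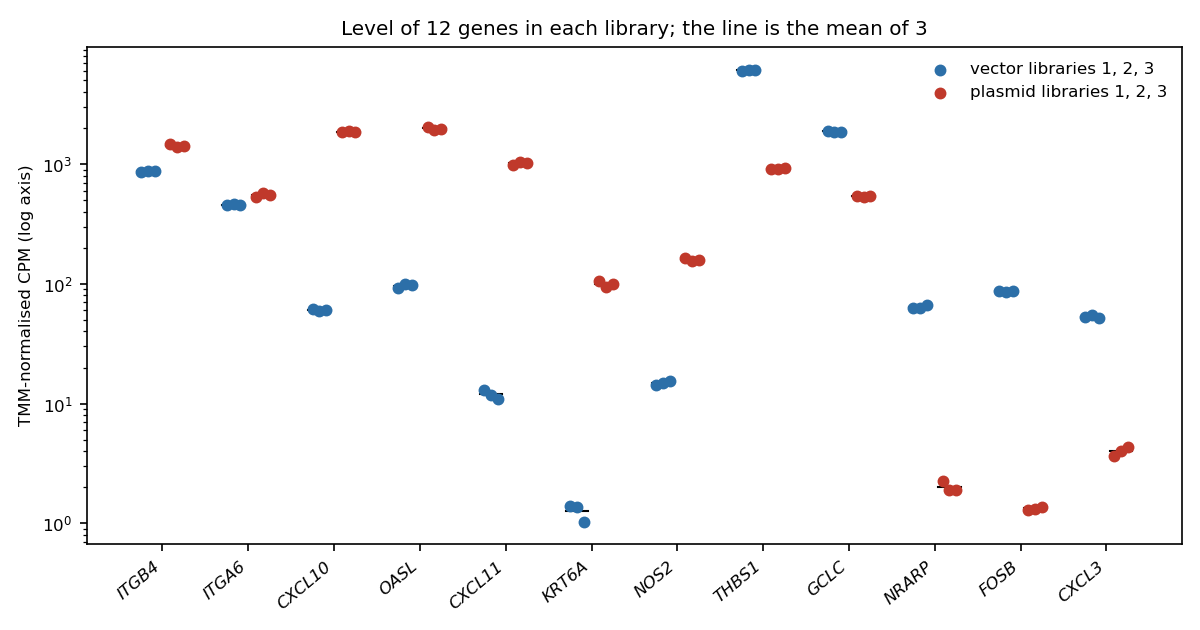
TMM-normalised CPM (log axis) of 12 genes in each of the 3 vector libraries (blue) and 3 plasmid libraries (red), with a line at each mean. The groups do not overlap for any gene shown: on average ITGB4 rises from 869 to 1427 CPM and CXCL10 from 60.4 to 1858 CPM, while FOSB falls from 86.3 to 1.33 CPM.

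The changed share of the RNA was large. Genes with a higher mean gained CPM amounting to 16.2% of all counts, and genes with a lower mean lost 13.4%, with TMM scaling between the groups. The 10 largest gains held 9.34% of all that was gained and the 100 largest 33.3%, while the 10 largest losses held 11.1% of all that was lost. The 8 largest gains were those of RSAD2, OASL, CXCL10, OAS1, LDHA, IFIT3, IFIT2 and IFIT1, of which all but LDHA, lactate dehydrogenase A, are interferon-induced. The 8 largest losses were those of THBS1, GCLC, EEF1A1, NEAT1, FTH1, SLC7A11, SCD and SQSTM1.

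THBS1, the secreted glycoprotein thrombospondin 1, lost more counts than any other gene. It stood at 6010, 6151 and 6117 CPM in the vector libraries and at 913, 907 and 923 CPM with the plasmid, a log2 fold change of -2.74 ± 0.023. Per length it moved from the 10th highest of 58308 genes to the 308th. THBS1-IT1, a noncoding transcript inside the THBS1 locus, fell by 5.88 on the log2 scale, and reads of overlapping genes cannot be told apart with this counting. CXCL10, a chemokine for T cells, moved the other way, from the 784th highest gene at 240 TPM to the highest of all at 7105 TPM. OASL was the 21st and CXCL11 the 23rd highest gene in the plasmid cells, from the 1611th and the 6195th.

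The antiviral effectors of the interferon response rose nearly as a block. Of 33 tested members of the IFIT and OAS list, 31 were higher (all genes: 36.5%), with a median log2 fold change of 1.20, and 2 were not called. OASL, a relative of the oligoadenylate synthetases, went from 93.1, 99.0 and 97.0 CPM to 2058, 1929 and 1978 CPM (4.37 ± 0.032). HERC5, the ligase that attaches ISG15, went from 14.2 to 329 CPM, IFIT2 from 92.0 to 1402 CPM and ISG20, an RNA exonuclease, from 8.52 to 156 CPM. The members that were not called had high or moderate levels in both groups: IFI44L stood at 485 and 475 CPM and IFI27 at 48.3 and 59.1 CPM. Summed over the list, the level rose from 11400 to 32000 CPM. As a sum the effectors were thus already well expressed in the vector cells.

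The stages upstream of the effectors differed from each other. Of 16 nucleic acid sensors and adaptors, 15 were higher (median 1.02), led by ZBP1, a sensor of Z-form nucleic acid, which went from 1.55 to 25.4 CPM. STING1, the adaptor of cytosolic DNA sensing, rose 3.56-fold, and RIGI, a sensor of viral RNA, 3.14-fold. MAVS, the adaptor of RIGI, was lower by 0.16 on the log2 scale (standard error 0.029, adjusted p = 3.74e-05). Among 15 signal transducers 11 were higher, including STAT2, from 262 to 646 CPM, and the inhibitors SOCS3 and USP18, which rose 4.03-fold and 2.92-fold. JAK1, at 485 and 476 CPM, TYK2, at 81.0 and 79.9 CPM, and IRF7, at 3.85 and 4.55 CPM, were not called. IRF9, the DNA-binding partner of STAT2, lay at -0.13 on the log2 scale (adjusted p = 0.0199), a call lost without vector replicate 2 or 3, without plasmid replicate 3 or with DESeq2 (adjusted p = 0.0525, 0.133, 0.162 and 0.0669).

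Interferon transcripts themselves were scarce in both groups. IFNB1, interferon beta, had 24 counts over the vector libraries and 20 over those with the plasmid, and IFNA1, IFNA2 and IFNG had 0 in both. IFNL2 and IFNL3, type III interferons, had 16 and 15 counts over the vector libraries and 14 and 12 over those with the plasmid. IFNL1, another type III interferon, was the only ligand of this list that passed the filter. IFNL1 rose from 0.380, 0.313 and 0.148 CPM to 1.88, 1.33 and 1.82 CPM (log2 fold change 2.61 ± 0.28). At these levels it could pass only through its plasmid libraries, so it could enter the test only as a rise. It was named after its values were seen. IFNLR1, its receptor chain, was 1.98-fold higher, while IFNAR1 and IFNGR1 each had a log2 fold change of -0.28.

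Genes typical of interferon gamma and the chemokines for lymphocytes rose together with the effectors. Of 12 guanylate-binding and interferon gamma genes 11 were higher (median 1.88), among them IDO1, a tryptophan-degrading enzyme, from 2.22 to 59.5 CPM, GBP5 from 3.61 to 81.9 CPM, and CD274, the ligand PD-L1, from 3.89 to 29.99 CPM. All 7 tested lymphocyte chemokines were higher. CXCL10 went from 61.6, 59.4 and 60.3 CPM to 1840, 1887 and 1848 CPM, CXCL11 from 11.96 to 1012 CPM and CCL22 from 4.40 to 220.1 CPM. The 11 tested antigen processing genes were all higher, with a median of 0.60, including B2M, the light chain of class I molecules, from 1169 to 1801 CPM. Another 5 of the 16 listed had too few counts to test, so this part of the pathway was measured only partly. Among them were TAP2 with 9 and 19 counts, PSMB8 with 10 and 16, HLA-C with 1 and 5 and TAPBP with 20 and 16. TAP1 and the chemokine CXCL9, at 0.306 and 0.285 CPM in the vector cells, reached 0.791 and 0.618 CPM. Genes this low in the vector cells could pass the low-count filter through their plasmid libraries alone. The filter may thus have helped to make the calls of both lists all higher.

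Promoter sequences are shown for 4 of these genes because all hold the ISRE core, GAAANNGAA, on either strand within 250 bases before the RefSeq start (GRCh38.p14). Each is printed 5′ to 3′ on the strand of its gene, with every match to the core in capitals. RSAD2 lies at chr2:6865781-6865839 (plus), IFIT1 at chr10:89392483-89392554 (plus), IFIT3 at chr10:89327817-89327909 (plus) and CXCL10 at chr4:76023685-76023743 (minus).
RSAD2: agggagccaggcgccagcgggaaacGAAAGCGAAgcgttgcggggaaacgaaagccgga
IFIT1: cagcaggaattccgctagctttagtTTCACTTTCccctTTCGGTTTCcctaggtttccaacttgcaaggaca
IFIT3: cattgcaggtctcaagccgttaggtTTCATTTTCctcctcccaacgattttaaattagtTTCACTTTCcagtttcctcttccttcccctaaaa
CXCL10: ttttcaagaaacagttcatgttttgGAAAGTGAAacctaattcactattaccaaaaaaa
IFIT1 and IFIT3 hold 2 matches each, all on the opposite strand, and RSAD2 and CXCL10 hold 1.

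The ISRE core was most frequent before the genes that rose most. It was found in 5.55% of the 11478 promoters of tested genes, in 9.43% of those of genes 2-fold to 4-fold higher, in 13.7% of those over 4-fold higher (25 of 183) and in 6.01% of those over 4-fold lower. Of the 26 IFIT and OAS members with a promoter 17 held it, among them IFI44L and IFI27, which were not called. THBS1 and CXCL3, which fell, also hold a match, while CXCL11, which rose, holds none. The AP-1 motif, TGANTCA, followed a different pattern, at 4.38% of all promoters, 15.3% of those over 4-fold higher and 9.29% of those over 4-fold lower. The CRE, TGACGTCA, was in 2.71% of all promoters and in none of the 183 over 4-fold higher. Base composition differed as well, with a mean GC content of 63.7% over all promoters, 58.0% over 4-fold higher and 62.0% over 4-fold lower, and its part in these shares was not tested. A match describes letters in the window and not a bound site.

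**Figure D3:**
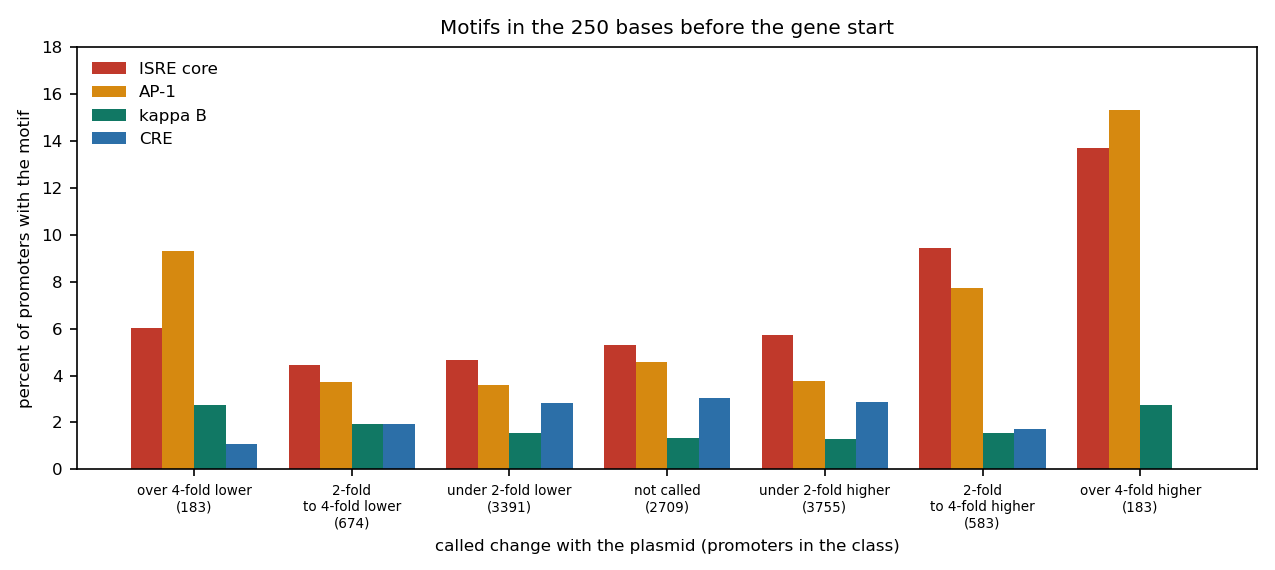
Bars give the percent of promoters (y axis) with the ISRE core, AP-1, kappa B or CRE motif on either strand in the 250 bases before the start, for genes classed by their called change (x axis, with the number of promoters). The ISRE core and AP-1 are highest in the class over 4-fold higher, at 13.7% and 15.3%, where no promoter held the CRE.

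Most genes of the immediate-early list fell. Of 24 tested, 22 were lower (all genes: 35.8%), with a median log2 fold change of -1.40. EGR2, EGR3, EGR4 and NR4A3 went from 1.33, 1.57, 0.801 and 0.832 CPM to 0.054, 0.0, 0.135 and 0.0844 CPM. At these levels they could pass the low-count filter only through their vector libraries, so they could enter the test only as falls. With a filter at 1 CPM in 3 libraries the median was -1.11 over 22 members. FOS went from 172, 180 and 183 CPM to 19.2, 18.6 and 18.7 CPM (-3.25 ± 0.040), and KLF2 from 4.11 to 0.445 CPM. The higher members were KLF4, a factor of epithelial differentiation, from 67.4 to 177 CPM, and FOSL2, from 743 to 880 CPM. EGR1, named after its values were seen, fell less than FOS, from 105, 103 and 104 CPM to 76.0, 74.4 and 72.6 CPM. Its promoter is shown as the textbook case of the CArG box, the element bound by serum response factor, with 2 boxes in capitals (chr5:138465349-138465430, plus).
EGR1: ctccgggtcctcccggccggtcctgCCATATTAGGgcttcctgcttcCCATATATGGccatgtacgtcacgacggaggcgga
FOS and FOSB thus fell 9.48-fold and 64.3-fold while EGR1 fell 1.40-fold. The contrast does not divide the FOS and EGR families. FOSL1, JUN and JUNB had log2 fold changes of -0.44, -0.46 and -0.34, and EGR2 and EGR4, at low counts, of -4.59 and -2.57.

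Feedback inhibitors and ligands around ERK were mostly lower. Of 16 feedback genes 11 were lower, among them the phosphatases DUSP5, from 593 to 161 CPM, DUSP4, from 97.9 to 34.2 CPM, and DUSP1, from 78.7 to 31.6 CPM. SPRY4, an inhibitor of receptor signalling, was among 2 that were higher, at 49.9 against 44.9 CPM. The other was ETV4, at 28.9 against 26.6 CPM. In 7 of the alternative settings only SPRY4 was still called higher. Among 12 EGF receptors and ligands 8 were lower and 3 higher, the lower ones including the ligand AREG, from 19.6 to 4.67 CPM, the ligand NRG1, from 21.2 to 10.8 CPM, and the receptor ERBB4, from 2.43 to 0.716 CPM. TGFA, another ligand of the EGF receptor, was higher, at 143 against 100.1 CPM. ERBB2, at 160 and 162 CPM, was not called.

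Chemokines for neutrophils and inflammatory growth factors moved against the lymphocyte chemokines. Of 14 tested, 10 were lower and 3 higher, with a median of -0.45. CXCL3 went from 52.7, 54.9 and 51.9 CPM to 3.68, 3.99 and 4.37 CPM, CCL20 from 287 to 80.3 CPM and LIF, a cytokine of the interleukin 6 family, from 288 to 100.1 CPM. CSF3, the granulocyte growth factor, had 3 counts over the vector libraries and 236 over those with the plasmid, a ratio of 86.7 with an exact 95% interval of 29.3 to 423 that covers counting error only. At these levels CSF3 could pass the low-count filter only through its plasmid libraries, so it could enter the test only as a rise. CXCL6, at 19.2 and 20.5 CPM, was not called.

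The kappa B motif, GGANTTTCC, was in 6 of the 11 promoters of this list and in 1.48% of all. It was in 2.73% of promoters of genes over 4-fold higher and in 2.73% of those over 4-fold lower. Members with the motif included IL6, which was higher at 2.86 against 1.90 CPM, and CXCL6, which was not called. CXCL10 and CXCL11, which rose, also hold a match. CXCL3, CXCL1 and CXCL8 are shown because they share the motif and fell by different amounts. CXCL1 and CXCL8 were named after their values were seen. They lie at chr4:74038734-74038792 (minus), chr4:73869290-73869348 (plus) and chr4:73740453-73740511 (plus) of GRCh38.p14, with the match in capitals.
CXCL3: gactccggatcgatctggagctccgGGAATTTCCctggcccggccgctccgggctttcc
CXCL1: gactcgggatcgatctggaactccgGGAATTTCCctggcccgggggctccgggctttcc
CXCL8: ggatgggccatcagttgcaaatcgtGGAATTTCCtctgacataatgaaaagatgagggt
The windows of CXCL1 and CXCL3 are identical at 55 of 59 bases. CXCL3 fell by 3.71 on the log2 scale (standard error 0.064), CXCL1 by 1.10 (0.029) and CXCL8 by 0.60 (0.053).

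Several Notch target genes were among the largest falls, while the receptors moved in different directions. NRARP, a feedback inhibitor of Notch, went from 63.3, 63.4 and 66.8 CPM to 2.24, 1.89 and 1.88 CPM (-5.02 ± 0.070). HES1 went from 338, 337 and 341 CPM to 54.2, 55.1 and 54.3 CPM, and HEY1, another transcriptional repressor downstream of Notch, was 13.2-fold lower. The receptor NOTCH3 was 1.99-fold higher, NOTCH1 was lower, at 143 against 182 CPM, and NOTCH2, at 263 and 253 CPM, was not called. The ligand JAG1 fell from 321 to 194 CPM, and HES4, another target, rose from 5.74 to 10.3 CPM. In all, 6 of 13 tested Notch pathway genes were lower and 3 higher, beside 35.8% and 36.5% over all genes. Of 15 Wnt pathway genes 9 were lower and 3 higher, the lower ones including the ligand WNT5A, from 454 to 132 CPM, and LGR5, a receptor of R-spondins, from 3.16 to 0.204 CPM. FZD5, a Wnt receptor, was 2.03-fold higher.

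Keratins and genes of the cornified envelope rose. Of 13 tested keratins 12 were higher (median 0.75), among them KRT80, from 26.1 to 93.4 CPM, and KRT19, from 1059 to 1798 CPM, while KRT5, at 4.10 and 3.83 CPM, was not called. Of 15 cornified envelope and S100 genes 14 were higher, among them SPRR1A, from 1.93 to 19.5 CPM, and IVL, the envelope precursor involucrin, from 4.31 to 25.7 CPM. S100P was lower, at 359 against 526 CPM. In the vector cells KRT13 stood at 0.211 CPM, KRT81 at 0.0601 CPM and SPRR1B at 0.0908 CPM. These genes could pass the low-count filter only through their plasmid libraries, so they could enter the test only as rises. SERPINB4 and SERPINB3, near-identical protease inhibitors of squamous epithelium whose reads can be split, were 12.98-fold and 17.96-fold higher. Urothelial differentiation genes moved both ways, with 8 of 15 higher and 6 lower: the uroplakin UPK1B rose from 54.8 to 147 CPM, and the uroplakin UPK2 fell from 6.42 to 3.34 CPM.

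Of 19 junction genes 9 were higher and 4 lower, and the core adhesion genes CDH1, at 710 and 689 CPM, CTNNB1, at 593 and 595 CPM, and CTNNA1, at 511 and 509 CPM, were not called. Of 19 actin and contractile genes 13 were higher and 2 lower, the higher ones including PDLIM7, a LIM protein of actin bundles, from 26.2 to 157 CPM. Of 19 matrix and protease genes 7 were higher and 10 lower. PLAUR, the urokinase receptor, rose from 8.99 to 79.95 CPM, while PLAU, urokinase itself, fell from 760 to 214 CPM. The TGF-beta and YAP list, which holds THBS1, had 7 of 17 higher and 6 lower.

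Enzymes that make reactive oxygen and nitrogen species rose, and most genes of glutathione and the NRF2 response, which remove them, fell. Of 10 reactive oxygen genes tested 7 were higher and 3 lower. NOS2, inducible nitric oxide synthase, went from 14.2, 15.0 and 15.4 CPM to 164.5, 154 and 159 CPM (3.42 ± 0.042), and DUOX2, a hydrogen peroxide producing oxidase, from 8.27 to 88.0 CPM. CYBB, the membrane subunit of the phagocyte NADPH oxidase, had too few counts to test, with 26 and 25. The lower members all degrade oxidants. CAT, catalase, went from 424, 423 and 416 CPM to 119, 123.5 and 112 CPM (-1.84 ± 0.032), GPX2 from 818 to 589 CPM, and SOD1 from 98.0 to 90.3 CPM. Of 26 NRF2 and glutathione genes 21 were lower and 4 higher (median -0.53). GCLC, the catalytic subunit of the first enzyme of glutathione synthesis, went from 1891, 1860 and 1867 CPM to 541, 536 and 539 CPM. SLC7A11, the cystine importer, went from 1762, 1716 and 1758 CPM to 603, 720 and 710 CPM, and FTH1, the ferritin heavy chain, was 1.68-fold lower. The list summed to 23100 CPM in the vector cells and 14900 CPM in the plasmid cells. AKR1B10, an aldo-keto reductase with close relatives, was 2.73-fold higher.

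Glycolytic and hypoxia-responsive genes rose, with 25 of 30 higher and 3 lower (median 0.70). LDHA went from 889, 912 and 897 CPM to 2497, 2425 and 2381 CPM, and CA9, a carbonic anhydrase of hypoxic cells, from 1.37 to 32.5 CPM. PFKFB4, a regulator of glycolytic flux, was 4.91-fold higher. VEGFA, also known as a hypoxia target, went the other way, from 1418 to 827 CPM. SLC2A3, a glucose transporter, rose from 0.509 to 13.8 CPM. All 6 metallothionein and zinc genes tested were higher, including MT2A, from 12.01 to 114.5 CPM, and the zinc sensor MTF1, from 46.7 to 96.5 CPM; reads of metallothioneins can be split among relatives.

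Genes of cholesterol synthesis, of the amino acid response and of ER chaperones were mostly lower, while those of fatty acid synthesis and storage went both ways. Of 22 cholesterol synthesis and uptake genes 17 were lower and 1 higher (3 without plasmid replicate 2), with INSIG1, a sterol-regulated inhibitor of the pathway, going from 67.3 to 33.3 CPM. Of 17 fatty acid synthesis and storage genes 7 were higher and 8 lower, with a median of 0.013. Among the lower, SCD, a fatty acid desaturase, went from 1678, 1669 and 1676 CPM to 636, 641 and 641 CPM. Among the higher were HILPDA and PLIN2, proteins of lipid droplets, at 3.23-fold and 2.05-fold. Of 19 amino acid response genes 13 were lower and 2 higher, the lower ones including PSAT1, a serine synthesis enzyme, from 635 to 191 CPM, and SLC7A5, an amino acid importer, from 757 to 283 CPM. ATF4, the factor that drives this response, stood at 662 and 659 CPM and was not called, and CHAC1 was 2.22-fold higher. Of 18 ER chaperone genes 13 were lower, including DNAJB9, from 41.4 to 12.9 CPM, and 3 were higher (1 with library sizes alone). Of 20 tRNA synthetases 11 were lower and 7 higher; WARS1, which interferon also induces, was 2.36-fold higher.

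Genes of DNA replication rose, while more mitosis genes fell than rose. Of 31 replication genes 28 were higher (median 0.65), among them the licensing factor CDT1, from 12.2 to 34.4 CPM, MCM10, from 10.1 to 26.8 CPM, and UHRF1, from 21.97 to 54.0 CPM. Of 28 mitosis genes 15 were lower and 8 higher, with KIF20A, a kinesin of cell division, going from 62.3, 62.6 and 62.5 CPM to 22.9, 23.02 and 21.7 CPM. Of 17 genes of G1 cyclins, their kinases and inhibitors 9 were higher and 6 lower. Among the cyclins, CCNE1 was 2.21-fold and CCND3 2.38-fold higher, CCNE2 and CCND1 were also higher, at log2 fold changes of 0.68 and 0.13, and CCND2 was 1.65-fold lower. Among 29 apoptosis regulators 20 were higher and 4 lower, the higher ones including the death ligand TNFSF10, from 86.6 to 257.5 CPM, while BCL2, an inhibitor of apoptosis, fell from 36.9 to 9.09 CPM.

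Basic machinery moved by small steps. Of 30 proteasome genes 25 were higher with a median of only 0.31, and PSMC4 went from 291 to 450.5 CPM. Of 83 cytosolic ribosomal protein genes 22 were higher and 27 lower, with a median of 0.007, and 34 were not called. RPL22L1, a paralog of RPL22, stood apart at -1.24 ± 0.041. Of 22 splicing factors 16 were lower and 5 higher (3 with library sizes alone), including SRSF6, from 168.5 to 88.0 CPM. Of 21 ribosome biogenesis genes 13 were higher and 4 lower, the higher ones including POLR1B, a subunit of RNA polymerase I, from 44.4 to 84.9 CPM. SQSTM1, an autophagy receptor, fell from 2020 to 1083 CPM, among 9 of 16 autophagy genes that were lower, while 4 were higher.

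**Figure D4:**
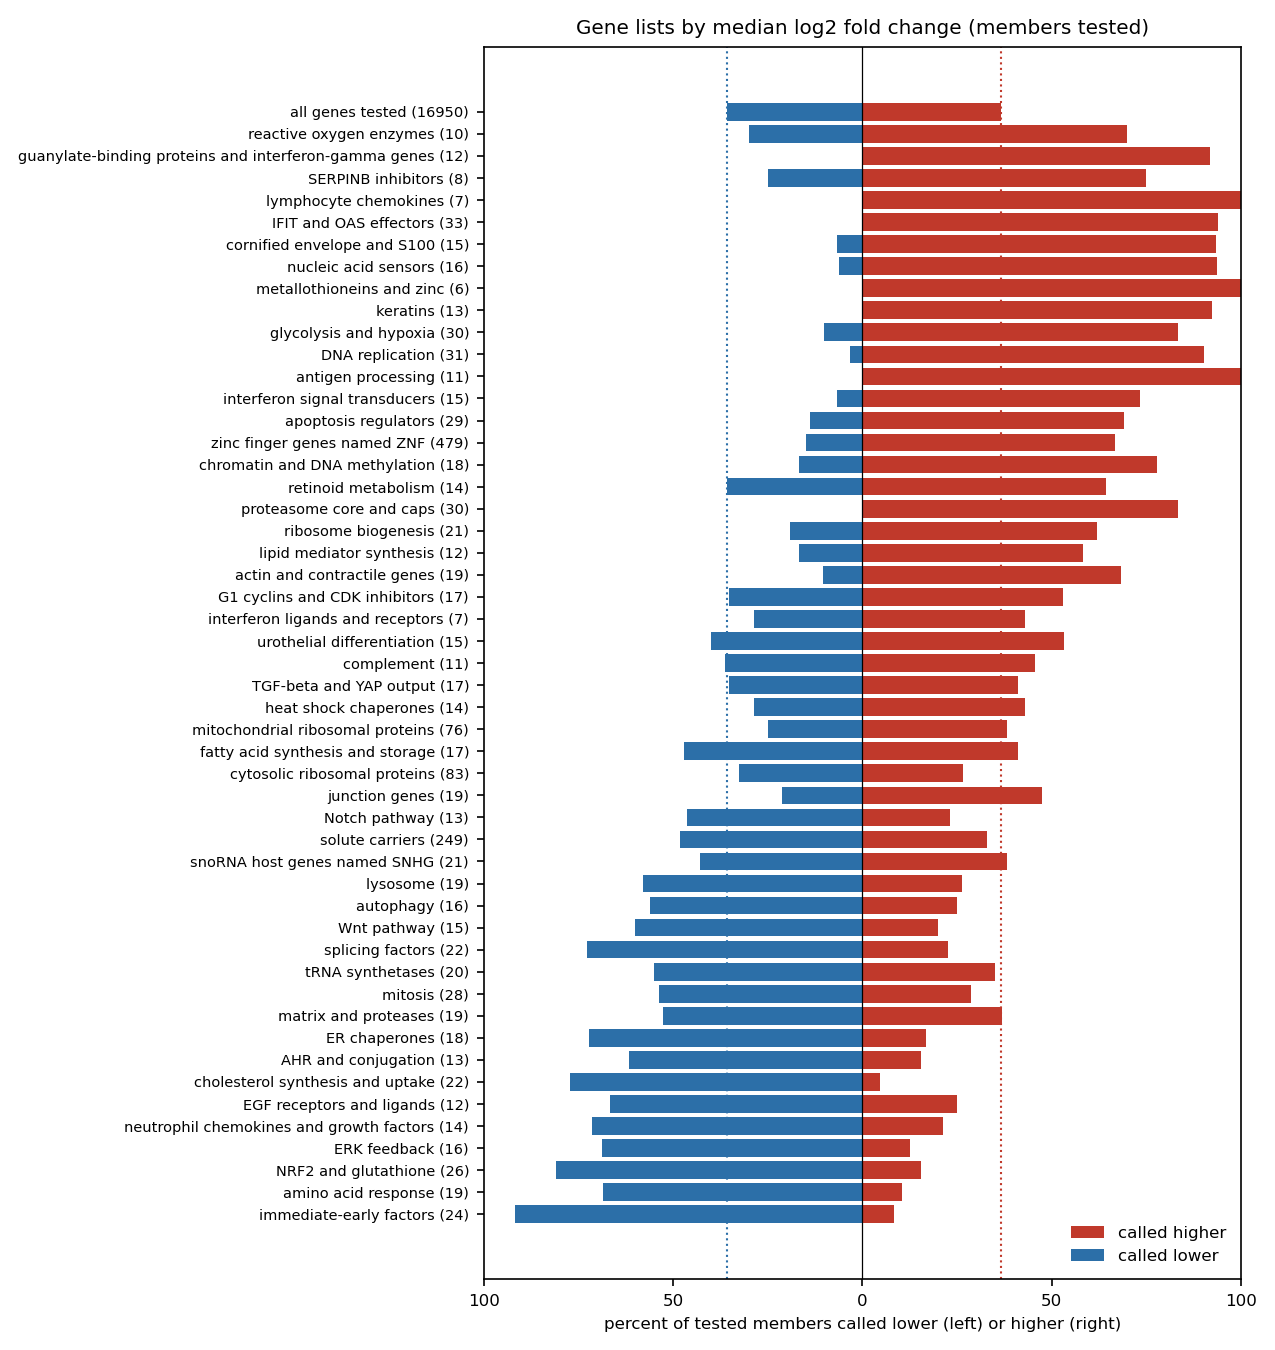
Bars give the percent of tested members called lower (left, blue) or higher (right, red) for each gene list with at least 6 tested members, ordered by median log2 fold change, with the number tested in parentheses. The top bar and dotted lines give all genes tested, at 36.5% higher and 35.8% lower; the IFIT and OAS list reaches 31 of 33 higher and the immediate-early list 22 of 24 lower.

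Gene classes differed in how their members moved. Zinc finger genes named ZNF, most of them DNA-binding repressors, were higher in 320 of 479 and lower in 72, with a median of 0.41. ZNF114, on chromosome 19, went from 16.95 to 125 CPM and ZNF341, on chromosome 20, from 20.1 to 91.2 CPM, while ZNF423 fell from 2.13 to 0.370 CPM. Protein-coding ZNF genes on chromosome 19, where they lie in clusters, had a median of 0.58 (169 of 228 higher), and those on other chromosomes 0.32 (144 of 231 higher). Chromosome 19 had the highest median of chromosomes 1 to 22 and X, at 0.22, and its protein-coding genes other than ZNF genes had a median of 0.13 (359 of 732 higher).

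More long genes were lower than higher. Of 1010 protein-coding genes spanning at least 200 kb from start to end in GENCODE 29, 597 were lower and 244 higher, with a median of -0.31, against 0.05 for the 12090 shorter ones. Among those with a mean of at least 10 CPM, 419 of 696 were lower (median -0.25). Protein-coding genes with 6000 or more exon bases had a median of 0.001. The median of lncRNA genes was also below 0: of 2264 lncRNA genes 857 were lower and 490 higher (567 and 320 with a filter at 1 CPM), with a median of -0.18. NEAT1, the scaffold of nuclear paraspeckles, went from 1596, 1532 and 1549 CPM to 400.5, 433 and 414 CPM. MIR3142HG fell by 3.19 and COLCA1 by 3.33 on the log2 scale. The lncRNAs LINC03078, LINC02474 and LINC01559 rose by 6.67, 5.47 and 4.92.

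**Figure D5:**
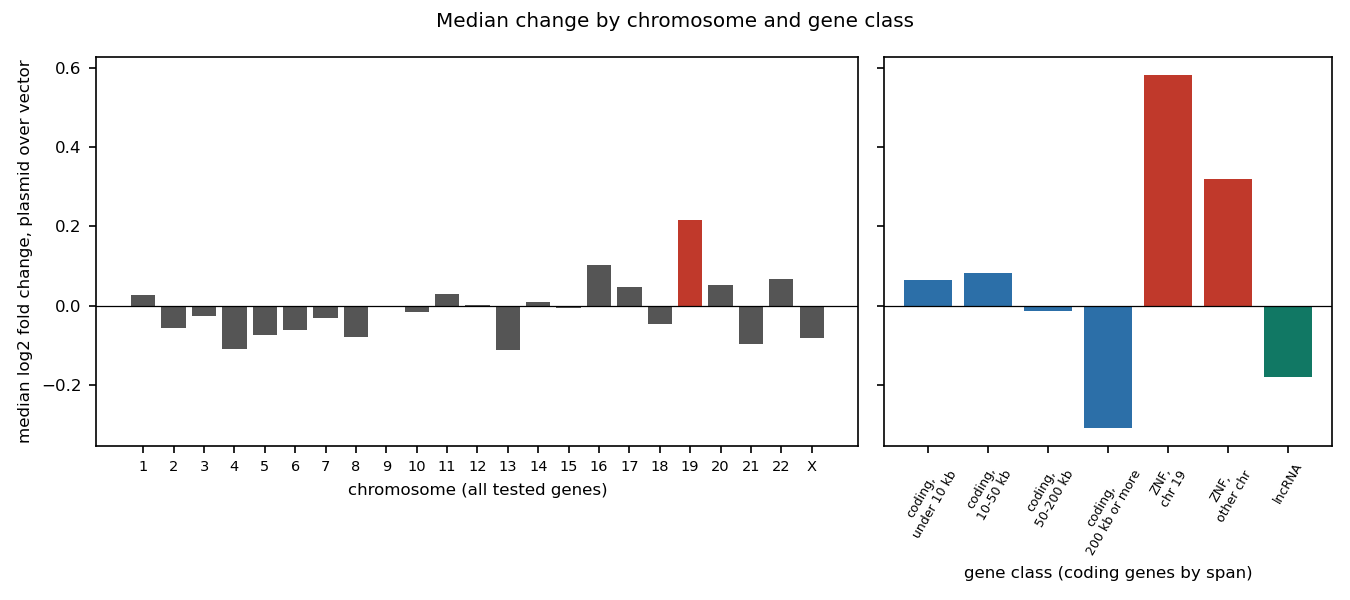
Bars give the median log2 fold change (y axis) of all tested genes on each chromosome (left) and of protein-coding genes by span, ZNF genes and lncRNA genes (right). Chromosome 19 stands highest at 0.22, ZNF genes on chromosome 19 reach 0.58, and protein-coding genes of 200 kb or more lie at -0.31.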

How the data were processed

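The authors deposited raw counts per gene for these 6 libraries in 1 table. Per the labels' protocols, total RNA was made into libraries with a directional kit. Per the file headers, reads were counted over exons with featureCounts 2.0.1 against Ensembl 107 without a strand option, so overlapping and antisense genes cannot be told apart. The submitters' processing notes name hg38. 

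Genes passing filterByExpr were tested with TMM factors and edgeR 4.0.16's robust quasi-likelihood test (R 4.3.3), and with glmTreat against 1.5-fold, with Benjamini-Hochberg adjustment over all genes. Standard errors are the size of the log2 fold change over the square root of F. Positions and merged exon lengths for TPM are GENCODE 29's, which held 58308 of 61860 genes, since the table has no gene lengths, which the design had planned to use; 61757 genes had a symbol. DESeq2 1.42.0 and limma 3.58.1 served as alternatives. The test was tried on data simulated from this comparison, with at least 16632 genes. It recovered 78% of genes changed 1.5-fold, 89.3% at 2-fold and 96% at 4-fold, and 7.94% of its calls were unchanged genes. Each simulated set changed only 200 genes, while 72.4% of genes were called here. These shares therefore need not hold for this comparison.

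The genes and the 55 lists were chosen with earlier results of these data known. Named genes are the 5 given as markers and ITGA6, the 10 largest rises and falls reaching 10 CPM, the 8 largest CPM gains and losses, up to 4 called members per list whose mean reaches 1 CPM, and the 3 largest lncRNA rises and falls reaching 5 CPM; members that were not called, and some further members, are named to describe their lists and were chosen after their values were seen. Not all are printed, and a few results are not reported here.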

Additional observations from a re-analysis of the deposited data

How the results depend on the processing

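No call changed sign under any of the 13 alternatives (other scalings, DESeq2, limma-voom, other low-count filters, the replicate block and leaving out each library). The number of genes over 1.5-fold lower was 1178 with DESeq2 against 1943, and the number over 1.5-fold higher was 1297 against 1890. The cause was not tested. All counts of genes but the 1178 stayed within 1.5 times. Leaving out 1 library gave 5921 to 6237 higher and 5778 to 6196 lower genes. With library sizes alone 46.9% of calls were higher, against 50.5%. Among the named genes NOP2, IRF9 and ETV4 lost their call under some alternatives.

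Same-numbered libraries did not deviate together (correlations 0.016, -0.054 and 0.056 over 10873 genes), and differently numbered ones had correlations from -0.06 to 0.042. No shared deviation was thus seen, but this cannot show whether the numbers pair cultures. With the replicate block 6125 genes were higher and 5984 lower.

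Genes near the filter rest on few counts: 49.4% of genes under 1 CPM were called, against 86.1% of those at 100 CPM or more.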

Other observations

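Genes of the major histocompatibility complex on chromosome 6 had few counts in all 6 libraries. Of 181 protein-coding genes in this region 39 could be tested (21.5%), with a median level of 0.019 CPM, against 576 of 858 (67.1%) and 8.09 CPM on the rest of the chromosome. TAP1 had 27 counts over the vector libraries and 61 over those with the plasmid, TAPBP 20 and 16, PSMB9 13 and 25, and TNF 0 in both. The level was low in both groups, and its cause was not tested.

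Complement genes had 5 of 11 higher and 4 lower: C1R rose from 146 to 408 CPM and C1S from 136 to 307 CPM, while CD55, which protects cells from complement, fell from 79.3 to 48.8 CPM. Retinoid genes had 9 of 14 higher and 5 lower: DHRS9, a retinol dehydrogenase, rose 32.2-fold, while ALDH1A1 and ALDH1A3, which make retinoic acid, were 6.499-fold and 2.64-fold lower. Chromatin genes had 14 of 18 higher and 3 lower, the higher ones including the DNA methyltransferase DNMT3B, from 17.1 to 40.3 CPM. Genes of the aryl hydrocarbon receptor and of conjugation had 8 of 13 lower and 2 higher (1 with a filter at 1 CPM): the receptor's target CYP1A1 fell from 5.37 to 0.604 CPM, while TIPARP, another target, was 1.34-fold higher.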
